A study of Rattus norvegicus with 11 samples.

Results

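Oxidative phosphorylation genes are the nuclear genes for the protein complexes of the mitochondrial inner membrane that carry electrons from nutrients to oxygen and use the released energy to make ATP. They were taken here as every measured rat gene whose symbol begins Nduf followed by a, b, c, s or v, is Sdha, Sdhb, Sdhc, Sdhd or Cyc1, or begins Uqcr, Cox4 to Cox8 or Atp5. The rule found 68 of 11427 genes, each read by 1 probe set. By name these were 27 genes of complex I, 4 of complex II, 7 of complex III, 11 of complex IV, 12 of complex V, the subunit gene Ndufa4, which was first assigned to complex I and later to complex IV, and 6 Ndufaf genes, whose products help to build complex I and are not part of the finished enzyme. The rule looked at names only and not at any measured value. Cox6c-ps1 is annotated as a pseudogene of Cox6c, and signal from such near-identical copies cannot be told apart with certainty. Subunits without a measured symbol, among them Cox5a, Cox6b1 and Atp5pf, were not analysed here.

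The samples were small intestine of rats, 1 Affymetrix array each, 11 in all. The 3 groups were ventilated, anaesthetised rats without brain death (NBD, replicates 1, 3 and 4), brain-dead rats (BD, replicates 1, 3, 4 and 6) and brain-dead rats with stimulation of the vagus nerve (BD_VNS, replicates 1 to 4), all at 6 hours. Another label of the NBD samples speaks of BD animals too, and the groups follow the titles. All samples are described as coming from transgenic rats, with no transgene, strain, age or sex given, and nothing says that each array was a separate animal, so p-values measure the spread between these arrays, which may be technical. With 3 or 4 arrays a group, the array number sets how precise each value is. All levels below are log2 values and all changes are differences between log2 values.

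Complex I takes electrons from NADH and complex II takes them from succinate, complex III passes them to cytochrome c, complex IV hands them to oxygen, and complexes I, III and IV pump protons whose return through complex V, the ATP synthase, drives ATP production. Most of the energy that the absorbing epithelium of the intestine spends on transport comes from this chain. Because the genes sit on different chromosomes but their products are needed in fixed proportions, they are known for being regulated together, in part through the transcription factors NRF-1, GABP and YY1 and the coactivators of the PGC-1 family.

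Motifs of these factors were counted in the promoters of the members. RefSeq promoter sequences (rat build GRCr8, 250 bases before to 50 after the transcription start) were matched by gene number for 60 of the 68 members. The NRF-1 motif searched was GCGCA, any base and then GCGC, the GABP motif CCGGAAG and the YY1 motif AAGATGGC, each on both strands. The NRF-1 motif stood in 11 of the 60 promoters (18.3%), against 8.55% of the promoters of all 9060 genes on the array that had one and 4.71% of all 27457 promoters. The GABP motif stood in 20 (33.3%, against 15.2% and 9.22%) and the YY1 motif in 12 (20%, against 4.81% and 3.44%). At least 1 of the 3 was found in 35 of the 60 (58.3%, against 24.7% and 15.5%), and Atp5me alone among the members held all 3. These are matches of letters, not measured binding sites.

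The promoters of 4 members are given 5′ to 3′ on the gene's strand with the motifs in capitals. Ndufaf4 is shown because it was the member that passed the test, Uqcrc1 because it had the highest change of BD_VNS against NBD, Atp5me because it held all 3 motifs, and Cox4i1 because it held the GABP motif in 2 places. The regions are chr5:43401545-43401844 (plus strand) for Ndufaf4, chr8:118467973-118468272 (plus strand) for Uqcrc1, chr14:1464610-1464909 (plus strand) for Atp5me and chr19:65630133-65630432 (plus strand) for Cox4i1, all in GRCr8.
Ndufaf4: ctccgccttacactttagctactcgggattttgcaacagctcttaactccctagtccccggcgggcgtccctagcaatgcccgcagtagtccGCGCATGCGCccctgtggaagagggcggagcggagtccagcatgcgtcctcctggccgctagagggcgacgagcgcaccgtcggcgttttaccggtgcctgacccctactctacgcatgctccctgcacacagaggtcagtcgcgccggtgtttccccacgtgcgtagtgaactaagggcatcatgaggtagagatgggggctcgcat
Uqcrc1: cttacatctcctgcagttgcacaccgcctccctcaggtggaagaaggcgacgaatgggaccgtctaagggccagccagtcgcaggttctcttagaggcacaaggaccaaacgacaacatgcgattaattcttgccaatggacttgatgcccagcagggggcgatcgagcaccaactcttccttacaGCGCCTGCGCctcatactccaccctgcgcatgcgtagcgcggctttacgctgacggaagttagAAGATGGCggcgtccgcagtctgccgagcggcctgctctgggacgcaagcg
Atp5me: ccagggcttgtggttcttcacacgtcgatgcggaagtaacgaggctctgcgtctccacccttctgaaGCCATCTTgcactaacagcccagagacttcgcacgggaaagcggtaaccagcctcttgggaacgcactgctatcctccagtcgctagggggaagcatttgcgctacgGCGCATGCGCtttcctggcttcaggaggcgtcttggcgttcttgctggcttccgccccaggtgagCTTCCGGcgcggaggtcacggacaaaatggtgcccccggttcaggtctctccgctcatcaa
Cox4i1: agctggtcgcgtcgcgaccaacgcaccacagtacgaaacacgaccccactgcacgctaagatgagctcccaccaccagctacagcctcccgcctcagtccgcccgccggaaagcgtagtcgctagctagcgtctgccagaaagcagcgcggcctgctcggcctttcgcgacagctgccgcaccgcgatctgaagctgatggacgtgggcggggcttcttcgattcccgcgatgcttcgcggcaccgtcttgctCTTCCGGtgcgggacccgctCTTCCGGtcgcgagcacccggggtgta
In Ndufaf4 the capitals mark the NRF-1 motif. In Uqcrc1 they mark the NRF-1 motif first and then the YY1 motif at the transcription start. In Atp5me they mark the YY1, NRF-1 and GABP motifs in that order, and in Cox4i1 both GABP matches lie after the start. The members with an NRF-1 motif had median changes of -0.02 (BD minus NBD), 0.09 (BD_VNS minus BD) and 0.07 (BD_VNS minus NBD), and the 49 without it had medians of -0.03, 0.07 and 0.04. For the GABP motif the medians were -0.04, 0.06 and 0.02 with it and -0.02, 0.08 and 0.06 without it. For the YY1 motif they were -0.03, 0.07 and 0.04 with it and -0.03, 0.07 and 0.05 without it. These are descriptions with no test.

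The arrays carried intestinal transcripts, since all 11 measured enterocyte markers lay above the array median in every array. Transcripts of the exocrine pancreas set 2 arrays apart. In BD 4 the 14 measured pancreatic acinar genes had a mean level of 13.8 and in BD 6 of 13.2, whereas the remaining arrays lay between 6.90 and 7.72. The highest of the remaining arrays were BD_VNS 3 (7.72) and BD_VNS 4 (7.56). The mean level of the enterocyte markers was 12.8 to 12.9 in NBD, 12.5 to 12.7 in BD and 12.7 to 12.8 in BD_VNS. RNA quality, read as the log2 excess of 3′ over 5′ signal in control probe sets for beta-actin and GAPDH, was 0.69 to 0.87 in NBD, 0.76 to 0.89 in BD and 0.75 to 1.10 in BD_VNS. Leaving out BD 4 and BD 6 moved many of the values below, and most comparisons with BD are also given without them. In tissue samples such as these, fewer cells of a type and less RNA per cell cannot be told apart.

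Oxidative phosphorylation genes varied between arrays about as much as a typical probe set. Of the 68 members, 61 lay above the array median in every array. Over all 11 arrays the difference between a member's highest and lowest level had a median of 0.26, from 0.11 for Uqcrc2, a core protein of complex III, to 0.55 for Ndufb9, an accessory subunit of complex I. The same range had a median of 0.29 over all probe sets. The mean level of the 68 members was 11.22, 11.23 and 11.26 in the NBD arrays, 11.26, 11.26, 11.14 and 11.16 in BD 1, 3, 4 and 6, and 11.22, 11.31, 11.28 and 11.27 in BD_VNS 1 to 4. The lowest 2 of these means belonged to BD 4 and BD 6, and the 3 groups overlapped.

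**Figure D1:**
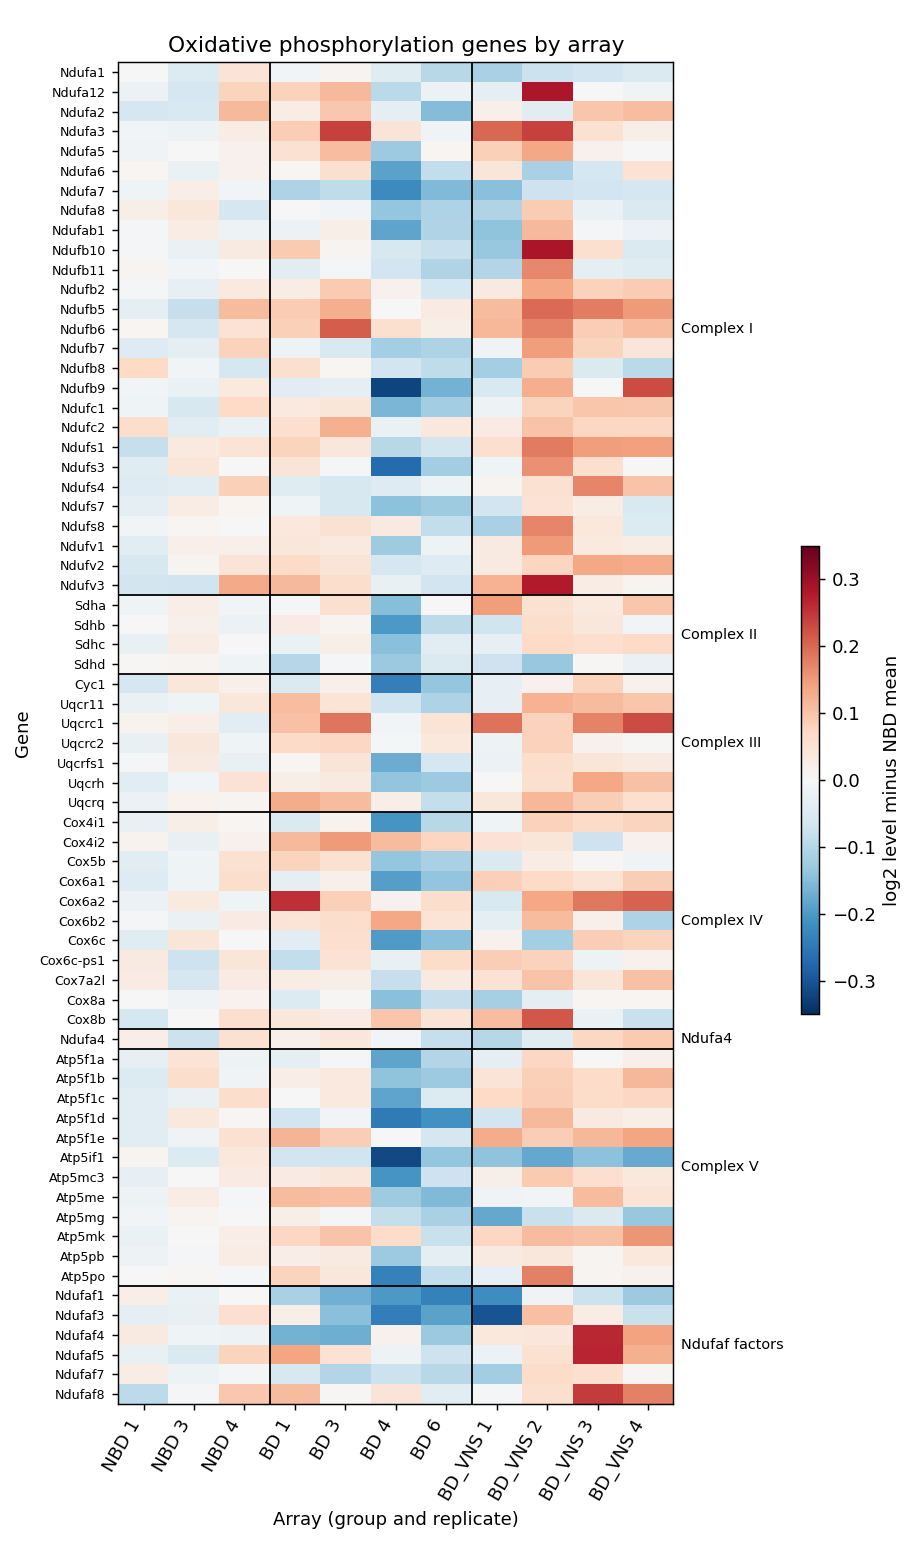
Level of each of the 68 genes (rows, ordered by complex) in each of the 11 arrays (columns), as log2 level minus the gene's mean in the 3 NBD arrays; red is higher and blue is lower. BD 4 is blue for most genes, where 34 of the 68 had their lowest level, and BD_VNS 2 is red for many, where 30 had their highest.

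Levels of single members were unevenly spread over the arrays. BD 4 held the lowest level of 34 of the 68 members (50%), while it held the lowest level of 16.3% of all probe sets. BD_VNS 2 held the highest level of 30 members (44.1%), against 18.6% of all probe sets. In 58 of the 68 members (85.3%) both BD 4 and BD 6 lay below both BD 1 and BD 3, which was so for 27.5% of all probe sets. The difference between these pairs of arrays had a median of -0.12 over the members and -0.02 over all probe sets. It ran from -0.25 for Atp5me, a membrane subunit of the ATP synthase, to 0.11 for Ndufaf4. BD 4 and BD 6 are the arrays with the highest levels of pancreatic transcripts, and the part of those transcripts in this difference was not tested.

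**Figure D2:**
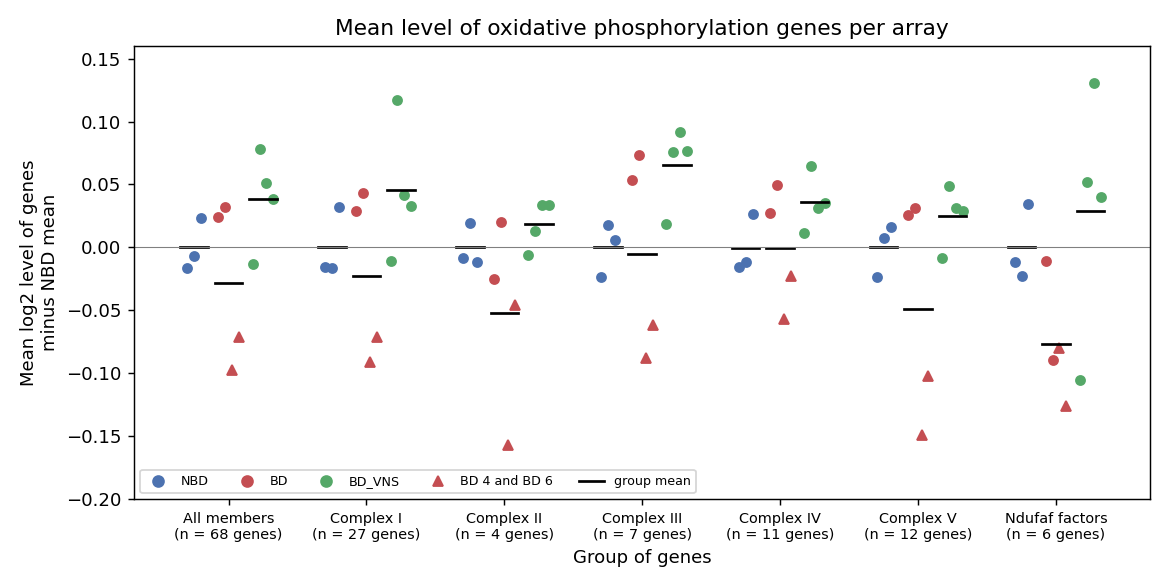
Mean log2 level of the genes of each complex in each array minus the NBD mean (points, arrays; triangles, BD 4 and BD 6; black lines, group means). In complexes I, III, IV and V the triangles lie below every other array, while BD 1 and BD 3 lie at or above the NBD mean.

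The comparison of BD with NBD asked whether brain death altered the transcripts of the chain. Of the 68 members 0 rose and 0 fell at a limma adjusted p under 0.05, whereas 5.73% of all probe sets passed (2.1% rose and 3.63% fell). At an unadjusted p under 0.05 there were 4 members (5.88%, against 18.8% of all probe sets), and these were Ndufa7, Ndufaf1, Cox4i2 and Atp5if1. Changes ran from -0.18 to 0.11, and the 95% intervals of all 68 lay between -0.33 and 0.26. The median was -0.03, with 22 members above 0, beside a median of -0.01 and 47% above 0 over all probe sets. Without BD 4 and BD 6 the median was 0.03, beside -0.004 over all probe sets. Then 46 members were above 0 (67.6%, against 48.5% of all probe sets), so the sign of the members' median rested on these arrays.

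The comparison of BD_VNS with BD asked whether vagal stimulation altered the same transcripts in brain-dead rats. Of the 68 members 1 rose, the assembly factor gene Ndufaf4, and 0 fell, whereas 5.56% of all probe sets passed (1.9% rose and 3.66% fell). At an unadjusted p under 0.05 there were 14 members (20.6%, against 22.6% of all probe sets). Changes ran from -0.10 to 0.23, and the 95% intervals lay between -0.19 and 0.37, so that none reached beyond 1.30-fold. The median was 0.07 with 61 members above 0, beside 0.03 and 62.5% above 0 over all probe sets. Without BD 4 and BD 6 the median was 0.01, 39 members were above 0 (57.4%, against 59.6% of all probe sets) and 0 passed.

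The comparison of BD_VNS with NBD set stimulated brain-dead rats against the ventilated controls and uses BD 4 and BD 6 only for the shared estimate of the spread. Of the 68 members 0 rose and 0 fell, whereas 8.44% of all probe sets passed (3.64% rose and 4.8% fell), and 8 members had an unadjusted p under 0.05 (11.8%, against 23%). Changes ran from -0.16 to 0.17, with 95% intervals between -0.29 and 0.28. The median was 0.05 with 52 members above 0 (76.5%), beside 0.01 and 56.3% over all probe sets. The comparisons share their arrays pairwise, so their values are not independent.

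**Figure D3:**
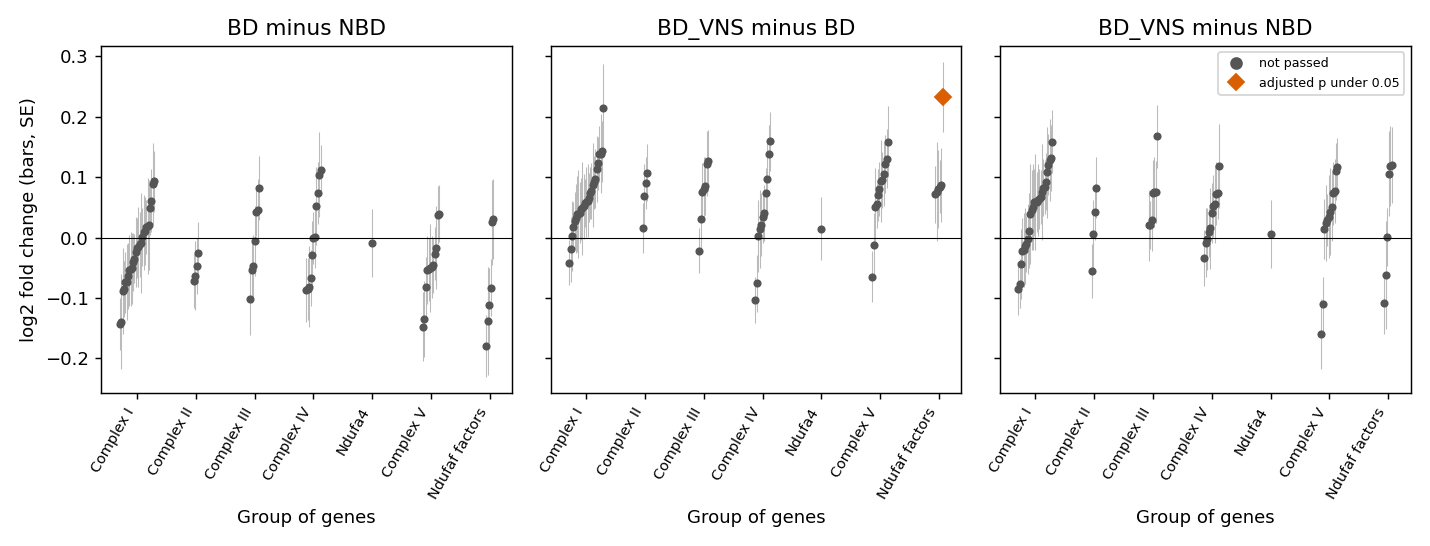
Change of each of the 68 genes on the log2 scale with its SE, by complex, in the 3 comparisons. A single gene, Ndufaf4 in BD_VNS minus BD, is drawn as a diamond for an adjusted p under 0.05, and the points of every complex lie within 0.25 of 0.

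Complex I, which feeds electrons from NADH into the chain, was measured through 27 genes, and none passed in any comparison. Its median was -0.02 in BD minus NBD (0.04 without BD 4 and BD 6), 0.06 in BD_VNS minus BD (0.01 without them) and 0.06 in BD_VNS minus NBD. Ndufv1, the subunit that binds NADH, had mean levels of 11.68 ± 0.03 over the 3 NBD arrays, 11.66 ± 0.08 over the 4 BD arrays and 11.74 ± 0.06 over the 4 BD_VNS arrays (± SD). Ndufs1, the iron-sulfur subunit beside it, was at 11.20, 11.32 and 11.33 in NBD, at 11.36, 11.32, 11.19 and 11.22 in BD and at 11.34, 11.47, 11.43 and 11.43 in BD_VNS. All 4 BD_VNS arrays of Ndufs1 lay above the NBD arrays, by 0.13 on average (limma adjusted p = 0.168). Ndufs3, which joins the arm that reduces ubiquinone, differed by 0.14 for BD_VNS against BD (adjusted p = 0.237), and Ndufab1, the mitochondrial acyl carrier protein, by 0.06 (adjusted p = 0.593). These differences were 0.03 and -0.01 without BD 4 and BD 6.

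Ndufa7, an accessory subunit, had the lowest p of complex I for BD against NBD. It was at 8.29, 8.33 and 8.29 in NBD and at 8.20, 8.21, 8.08 and 8.15 in BD, and the groups did not overlap (-0.14 ± 0.04, SE; adjusted p = 0.0789, and 0.336 without BD 4 and BD 6). Groups that did not overlap were found for 5 members lower and 2 higher in BD than in NBD, against 11.4% and 9.03% of all probe sets and 7.35% and 2.94% of the members. The lower ones were Ndufa7, Ndufb9, Atp5if1, Ndufaf1 and Ndufaf7, and the higher ones were Cox4i2 and Cox6b2. For BD_VNS against BD 7 members were higher without overlap (10.3%, against 7.31%) and 1 was lower (1.47%, against 5.81%). The higher ones were Ndufb7, Ndufs4, Cox6a1, Cox7a2l, Atp5f1b, Atp5f1c and Ndufaf4, and the lower one was Cox4i2. For BD_VNS against NBD 11 were higher (16.2%, against 10.9%) and 4 lower (5.88%, against 10%).

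The 6 Ndufaf genes, whose products assemble complex I, held the one call. Ndufaf4 (Entrez Gene 362495), which works with Ndufaf3 on an early intermediate of complex I, was at 9.22, 9.17 and 9.17 in NBD, at 9.02, 9.01, 9.20 and 9.06 in BD 1, 3, 4 and 6, and at 9.22, 9.22, 9.45 and 9.32 in BD_VNS. All BD_VNS arrays lay above all BD arrays, though BD 4 came close to the lowest of them, and BD_VNS 3 was the highest. Ndufaf4 was 1.18-fold higher in BD_VNS than in BD (log2 fold change 0.23 ± 0.06, SE; limma adjusted p = 0.0393). Against NBD the change was -0.11 in BD (adjusted p = 0.373) and 0.12 in BD_VNS (adjusted p = 0.287). Leaving out BD 4 and BD 6 gave a change against BD of 0.29 and an adjusted p of 0.061. The call passed in 10 of 22 other settings, with adjusted p from 0.00494 to 0.112, and it was lost without any single one of BD 1, BD 3, BD 6, BD_VNS 3, BD_VNS 4, NBD 1, NBD 3 and NBD 4. Those 10 include the first fit itself, read at an adjusted p under 0.10, where the call could not be lost.

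Ndufaf1, which acts on a membrane intermediate of complex I, had the lowest change of all members for BD against NBD. It was at 7.49, 7.44 and 7.46 in NBD, at 7.35, 7.29, 7.26 and 7.23 in BD and at 7.24, 7.45, 7.39 and 7.33 in BD_VNS. All 4 BD arrays lay below the 3 NBD arrays, while BD_VNS spanned both (-0.18 ± 0.05, SE, for BD against NBD; adjusted p = 0.0661, and 0.29 without BD 4 and BD 6). Ndufaf1 passed in that comparison when BD_VNS 1 (adjusted p = 0.0434) or BD_VNS 2 (adjusted p = 0.0346) was left out of the shared spread. Over all 22 other settings its adjusted p there ran from 0.00902 to 0.29, and 4 were under 0.05. The other 4 Ndufaf genes were not called in any comparison. Ndufaf3 differed by -0.14, Ndufaf5 by 0.03, Ndufaf7 by -0.08 and Ndufaf8 by 0.03 for BD against NBD, and by 0.08, 0.08, 0.08 and 0.09 for BD_VNS against BD. With BD 4 and BD 6 left out, Ndufaf3 and Ndufaf5 were at -0.06 and 0.09 in the first comparison and at -0.0004 and 0.01 in the second, and Ndufaf7 and Ndufaf8 at -0.08 and 0.06 and at 0.08 and 0.06.

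**Figure D4:**
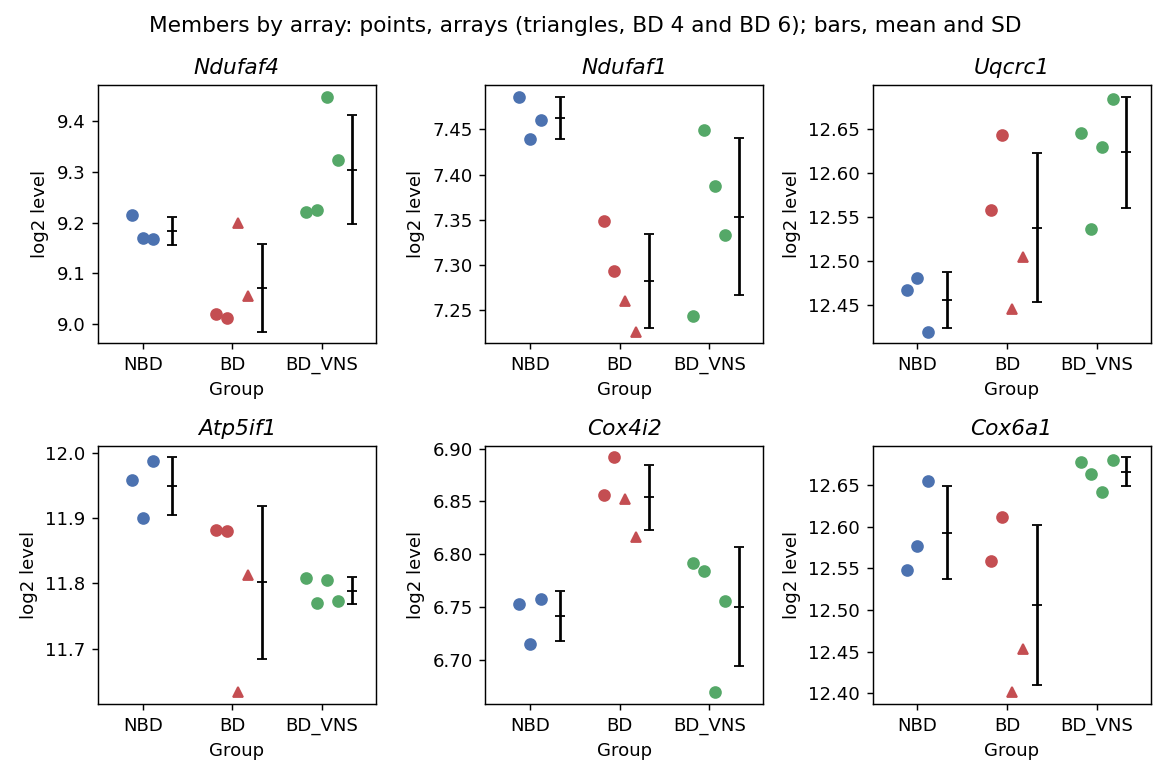
Log2 level of 6 members in each array by group (points; triangles are BD 4 and BD 6), with mean and SD; each panel has its own axis, which does not start at 0. Ndufaf4, which passed for BD_VNS against BD, shows BD 4 next to the BD_VNS arrays, and Cox6a1 shows BD 4 and BD 6 below all others.

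Complex II, succinate dehydrogenase, also serves in the citric acid cycle, and its 4 genes were all measured. Sdha, the flavoprotein that oxidises succinate, was at 12.08, 12.12 and 12.09 in NBD, at 12.09, 12.15, 11.95 and 12.09 in BD and at 12.24, 12.15, 12.13 and 12.19 in BD_VNS. Its BD_VNS arrays lay above its NBD arrays by 0.08 on average (adjusted p = 0.382). Sdhb, the iron-sulfur subunit, differed by -0.06 for BD against NBD and by 0.07 for BD_VNS against BD (adjusted p = 0.61 and 0.476). The membrane anchors Sdhc and Sdhd differed by -0.05 and -0.07, and by 0.09 and 0.02. Omitting BD 4 and BD 6 turned both signs of Sdhb (0.02 and -0.01), gave -0.002 and 0.04 for Sdhc and gave -0.05 and -0.002 for Sdhd. For these 4 genes no 95% interval reached beyond 0.21 in either direction in any comparison.

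Complex III gave 7 genes, and none passed. Uqcrc1, a core protein, had the highest change of all members for BD_VNS against NBD. It was at 12.47, 12.48 and 12.42 in NBD, at 12.56, 12.64, 12.45 and 12.50 in BD and at 12.64, 12.54, 12.63 and 12.68 in BD_VNS. The BD_VNS arrays lay above the NBD arrays and the BD arrays spanned both (0.17 ± 0.05, SE, for BD_VNS against NBD; adjusted p = 0.0747). Over 22 other settings the adjusted p ran from 0.0095 to 0.364, and 3 were under 0.05. Among them was the fit without BD_VNS 2 (adjusted p = 0.0272), where 14.3% of all probe sets passed, against 8.44% with it. Uqcrc2, the partner core protein, differed by 0.02 in the same comparison, Uqcrfs1, the Rieske iron-sulfur protein, by 0.03 and Cyc1, cytochrome c1, by 0.02. All 7 genes were above 0 there, with a median of 0.07, and for BD against NBD 3 were above 0, with a median of -0.01. With BD 4 and BD 6 omitted, 6 were above 0 for BD against NBD, with a median of 0.07.

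Complex IV, cytochrome c oxidase, has isoforms that differ between tissues, and the deposited values cover both kinds. Cox6a1, the widely expressed form of a subunit that has another form in muscle, was at 12.55, 12.58 and 12.65 in NBD, at 12.56, 12.61, 12.40 and 12.45 in BD and at 12.68, 12.66, 12.64 and 12.68 in BD_VNS. BD 4 and BD 6 were its lowest arrays, and BD_VNS lay above BD without overlap (0.16 ± 0.05, SE; adjusted p = 0.0776, and 0.0487 without BD 3). Without BD 4 and BD 6 this change was 0.08 (adjusted p = 0.416). Cox4i1, the regulatory subunit of most tissues, differed by -0.09 for BD against NBD and by 0.14 for BD_VNS against BD (adjusted p = 0.416 and 0.113). Cox5b, Cox6c, Cox8a and Cox7a2l, which takes part in joining complexes III and IV, lay between -0.08 and 0 in the first of these and between 0.02 and 0.10 in the second. On the arrays other than BD 4 and BD 6, Cox4i1 differed by -0.02 and 0.07, Cox5b by 0.07 and -0.07, Cox6c by 0.01 and 0.01, Cox8a by -0.02 and -0.01, and Cox7a2l by 0.02 and 0.05. Ndufa4 lay between -0.01 and 0.01 in the 3 comparisons (adjusted p from 0.899 to 0.973), and at 0.03 and -0.02 in the first and second without BD 4 and BD 6.

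The isoforms with narrow expression were Cox4i2, best known from lung, Cox6a2 and Cox8b of heart and skeletal muscle, and Cox6b2 of testis. All 4 lay in the lowest 25% of probe sets by mean level, and the other 64 members did not. Cox4i2 was at 6.75, 6.71 and 6.76 in NBD, at 6.86, 6.89, 6.85 and 6.82 in BD and at 6.79, 6.78, 6.67 and 6.76 in BD_VNS. BD lay above both other groups without overlap, by 0.11 ± 0.04 (SE) against NBD (adjusted p = 0.153) and by 0.10 against BD_VNS (adjusted p = 0.131). Cox6a2, Cox6b2 and Cox8b differed by 0.10, 0.07 and 0.05 for BD against NBD, with adjusted p from 0.464 to 0.73, and by 0.17, 0.05 and 0.03 without BD 4 and BD 6. No detection call accompanies the values, so whether these probe sets measured their transcripts or background is not known. The 14 measured striated muscle markers averaged 6.84 to 7.06 over all arrays, 1 of them lay above the array median in every array, and 0 passed in any comparison.

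Complex V, the ATP synthase, was measured through 11 subunit genes and Atp5if1, whose protein blocks the enzyme when it would run backwards and consume ATP. Atp5f1b, the catalytic beta subunit, was at 13.33, 13.44 and 13.37 in NBD, at 13.41, 13.42, 13.24 and 13.26 in BD and at 13.43, 13.47, 13.45 and 13.50 in BD_VNS. Its BD_VNS arrays lay above its BD arrays, narrowly so for BD 1 and BD 3 (0.13; adjusted p = 0.14). Atp5f1a, the alpha subunit, differed by 0.10 (adjusted p = 0.244), and Atp5f1c, the rotating gamma subunit, by 0.12 (adjusted p = 0.159). For BD against NBD these subunits had differences of -0.08 (Atp5f1a), -0.05 (Atp5f1b) and -0.05 (Atp5f1c). Leaving out BD 4 and BD 6 gave -0.02, 0.03 and 0.02, so that the sign turned for Atp5f1b and Atp5f1c, and it brought the differences of BD_VNS from BD to 0.03, 0.05 and 0.06.

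Atp5if1 had the lowest change of its complex in both comparisons with NBD. It was at 11.96, 11.90 and 11.99 in NBD, at 11.88, 11.88, 11.63 and 11.81 in BD and at 11.81, 11.77, 11.80 and 11.77 in BD_VNS. The NBD arrays lay above all 8 others. The change was -0.15 ± 0.06 (SE) in BD (adjusted p = 0.184, and -0.07 without BD 4 and BD 6) and -0.16 ± 0.06 in BD_VNS (adjusted p = 0.116), and both comparisons use the same 3 NBD arrays. Without BD 4 and BD 6, or without BD 4 alone, the second passed (adjusted p = 0.0336 and 0.0267). Over all 22 other settings its adjusted p ran from 0.0267 to 0.276, and 4 were under 0.05. Only Atp5mg, another membrane subunit, also lay below 0 in BD_VNS against NBD among the 12 genes, by 0.11 (adjusted p = 0.171). The other 10 lay above 0, and the median of the 12 was 0.04. Higher than NBD without overlap were 3 (25%, against 10.9% of all probe sets) and lower 2 (16.7%, against 10%). The higher ones were Atp5f1c, Atp5f1e and Atp5mk, by 0.07, 0.12 and 0.11 (adjusted p = 0.462, 0.168 and 0.184).

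Genes around the chain were described from lists that hold no member. The assembly factors of complexes II to V and further ones of complex I were 30 measured genes, of which 0 passed for BD against NBD, 2 rose for BD_VNS against BD and 5 rose for BD_VNS against NBD, with 0 falling. Cox10 makes a precursor of the heme of complex IV. Its levels were 9.55, 9.64 and 9.58 in NBD, 9.54, 9.61, 9.39 and 9.55 in BD and 9.73, 9.81, 9.85 and 9.81 in BD_VNS. BD_VNS lay above both other groups without overlap, by 0.28 ± 0.05 (SE) against BD (adjusted p = 0.0119) and by 0.21 ± 0.05 against NBD (adjusted p = 0.0352). Without BD 4 and BD 6 the first was 0.23 with an adjusted p of 0.0642. Coa4, a small protein needed for complex IV, rose by 0.16 and 0.17 (adjusted p = 0.0395 and 0.0262). Sdhaf2, which attaches the flavin to Sdha, rose by 0.19 against NBD (adjusted p = 0.0238), and Uqcc3, of complex III, by 0.20 (adjusted p = 0.0443, and 0.0627 without BD 4 and BD 6). When BD 4 and BD 6 were left out, the counts that rose were 0 (Coa4 at an adjusted p of 0.138) and 3. The list's median was 0.02, 0.09 and 0.08 in the 3 comparisons in the order given, beside -0.01, 0.03 and 0.01 over all probe sets. Without BD 4 and BD 6 the list's median was 0.03 for BD against NBD and 0.07 for BD_VNS against BD.

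Of 18 measured genes of the citric acid cycle and the pyruvate dehydrogenase complex, 2 fell for BD against NBD, and both were kinases that switch pyruvate dehydrogenase off. Pdk4 was at 8.92, 8.96 and 8.94 in NBD, at 7.60, 7.78, 7.97 and 7.68 in BD and at 7.74, 7.65, 7.62 and 7.76 in BD_VNS, so that both brain-dead groups lay below NBD by more than 2-fold (2.27-fold and 2.38-fold). Pdk2 fell by 0.27 ± 0.06 (SE) in BD (adjusted p = 0.0171, and 0.0847 without BD 4 and BD 6) and was lower by 0.11 in BD_VNS (adjusted p = 0.266). Dlst, a subunit of oxoglutarate dehydrogenase, rose by 0.26 ± 0.05 for BD_VNS against BD (adjusted p = 0.0164, and 0.11 without BD 4 and BD 6). The list's median was -0.08 for BD against NBD (-0.03 without BD 4 and BD 6) and 0.05 for BD_VNS against BD (0.009 without them).

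Of 16 regulators, 0 passed for BD against NBD. Ppargc1b, a PGC-1 coactivator, was at 9.67, 9.58 and 9.72 in NBD, at 9.54, 9.34, 9.32 and 9.42 in BD and at 9.83, 9.57, 9.76 and 9.79 in BD_VNS. BD lay below both other groups without overlap, and Ppargc1b rose by 0.33 ± 0.07 (SE) for BD_VNS against BD (adjusted p = 0.0161, and 0.104 without BD 4 and BD 6). Against NBD the change in BD was -0.25 (adjusted p = 0.0649). Hif1a, the oxygen-sensing transcription factor, fell by 0.28 for BD_VNS against NBD (adjusted p = 0.0131). Of 10 genes of mitochondrial DNA maintenance and expression, 1 passed, the DNA helicase gene Twnk, which rose by 0.25 ± 0.04 for BD_VNS against NBD (adjusted p = 0.0063). Its 4 BD_VNS arrays lay at 8.08 to 8.21, above BD at 7.94 to 8.05 and NBD at 7.87 to 7.93.

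Of 23 genes of electron carriers, ubiquinone synthesis, uncoupling and adenine nucleotide exchange, 2 fell for BD against NBD. Coq10b, a ubiquinone-binding protein, was at 10.73, 10.50 and 10.46 in NBD, at 10.20, 10.22, 9.84 and 10.16 in BD and at 10.12, 10.02, 10.20 and 10.13 in BD_VNS. It fell by 0.46 ± 0.09 (SE) in BD (adjusted p = 0.0143, and 0.0524 without BD 4 and BD 6) and by 0.45 ± 0.09 in BD_VNS against NBD (adjusted p = 0.0124). Ucp2, an inner membrane carrier of the uncoupling protein family, fell by 0.40 in BD (adjusted p = 0.0205, and 0.136 without BD 4 and BD 6). For BD_VNS against BD the outer membrane channel gene Vdac2 rose by 0.19 (adjusted p = 0.0481) and the exchanger gene Slc25a4 fell by 0.30 (adjusted p = 0.0493), and without BD 4 and BD 6 neither passed (adjusted p = 0.263 and 0.0826). Dhodh, which feeds electrons from pyrimidine synthesis to ubiquinone, rose by 0.15 for BD_VNS against NBD (adjusted p = 0.036). Of 8 measured glycolysis genes, 1 rose, Pfkl (0.23 for BD_VNS against BD; adjusted p = 0.0349, and 0.165 without BD 4 and BD 6).

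**Figure D5:**
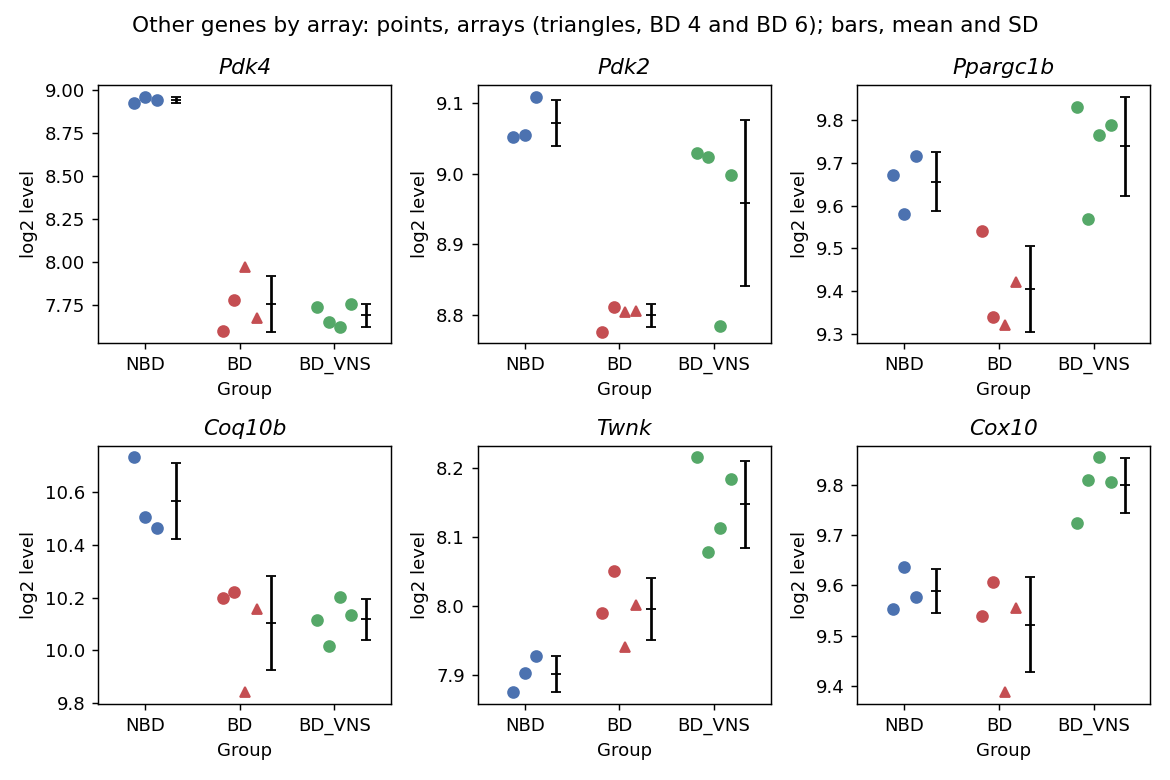
Log2 level of 6 genes outside the chain in each array by group (points; triangles are BD 4 and BD 6), with mean and SD; each panel has its own axis, which does not start at 0. Pdk4 is low in all 8 arrays of brain-dead rats, at 7.60 to 7.97, and Cox10 is highest in the 4 BD_VNS arrays.

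Markers of other cells moved between the groups as well. Of 10 macrophage markers 8 fell for BD_VNS against BD (4 without BD 4 and BD 6), and their mean level was 8.65 to 8.80 in BD and 7.79 to 8.36 in BD_VNS. Of 12 fibroblast markers 8 fell in that comparison (4 without BD 4 and BD 6), with mean levels of 9.96 to 10.16 and 9.14 to 9.65. Of 7 adipocyte markers 3 fell there (0 without BD 4 and BD 6), with mean levels of 7.40 to 7.71 and 7.12 to 7.37. The median changes of these lists for BD_VNS against BD were -0.70, -0.67 and -0.06. Without BD 4 and BD 6 they were -0.73, -0.67 and -0.08, and 1.33% of all probe sets passed, against 5.56% with them. For BD_VNS against NBD, 7 macrophage, 4 fibroblast and 3 adipocyte markers fell. For BD against NBD, 3 fibroblast markers rose and 1 adipocyte marker fell. Of 11 enterocyte markers 4 fell for BD against NBD (2 without BD 4 and BD 6) and 3 rose for BD_VNS against BD (0 without them). Of 8 smooth muscle markers 2 rose for BD against NBD and 2 for BD_VNS against NBD. The mean level of the 8 was 9.62 to 9.81 in NBD, 9.83 to 10.21 in BD and 9.86 to 10.16 in BD_VNS. Of the 14 pancreatic markers 0 passed in any comparison. The part of these cells in the changes of single members was not tested.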

How the data were processed

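RNA was isolated from rat small intestine with Trizol and biotinylated cRNA was made by the Affymetrix protocol, per the labels' protocols. The authors deposited 1 log2 value per probe set and array. That they are log2 was read from their range (5.36 to 14.48), since no label states the scale, and the software, normalization and scan batches are not stated there either. Of 11484 probe sets, each carrying an Entrez gene number or a control name, 57 controls were set aside. The other 11427 entered the tests whatever their level. The platform annotation gave 11018 of them 1 symbol and 409 none, and the symbols of all 68 members were the same in RefSeq.

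A limma model (version 3.58.1, lmFit and eBayes, in R 4.3.3) held the 3 groups, with Benjamini-Hochberg adjustment across the 11427 probe sets. Genes with an adjusted p under 0.05 are said to have passed. Intervals are 95% intervals of this model, and the code was tested on simulated data. The members and lists were chosen with earlier results of these data known, so lists have counts and medians and no test. Named genes were up to 4 members of each complex with the smallest p among those that passed, a set of core subunits, isoforms of narrow expression with their partners, the highest and lowest change of each comparison, and up to 4 genes of each other list that passed. Ndufa7, Ndufb9, Atp5me, Atp5mg, Atp5f1e, Atp5mk, the remaining Ndufaf genes and those listed for groups without overlap were named after their values were seen. Alternatives covered the variance prior, normalization, low levels, array weights, covariates, the replicate block and leaving out arrays. No 2 arrays of a group held the same values.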

Additional observations from a re-analysis of the deposited data

Results flagged for a closer look

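For 5 members 1 array stood apart from the other 3 of its group by Dixon's test of the gap to the nearest value. In BD_VNS 1, Cox4i1 (13.20, the others 13.28 to 13.29) and Sdhc (12.13, the others 12.22 to 12.23) were low. In BD_VNS 2, Ndufv1 was high (11.83, the others 11.70 to 11.71). In BD 4, Cox7a2l was low (11.06, the others 11.16 to 11.17) and Cox6b2 was high (7.02, the others 6.93 to 6.94). Of 72 groups of 4 arrays tested, 5 met this rule, and chance gives about 1 in 20.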

How the results depend on the processing

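The counts of members that rose or fell were small under every alternative run (0 to 4 in each direction) but not fixed. For BD minus NBD (0 rose, 0 fell), quantile normalization gave 1 fall (Ndufa7), a fit of only those groups 1 fall (Ndufaf1), array weights 1 rise (Cox4i2) and 2 falls (Ndufaf1, Ndufa7), and an adjusted p under 0.10 the same 2 falls. For BD_VNS minus BD (1 rose), the count was 3 with quantile normalization (Ndufaf4, Cox6a1, Ndufb7), 2 with array weights or an adjusted p under 0.10 (Ndufaf4, Cox6a1), and 0 with only those groups, with the RNA quality ratio as covariate, without BD 4 and BD 6, or with the replicate block. For BD_VNS minus NBD (0 and 0), quantile normalization gave 1 rise (Ndufb5) and 1 fall (Atp5if1), array weights 4 rises (Atp5f1e, Ndufb5, Uqcrc1, Ndufaf4) and 1 fall (Atp5if1), an adjusted p under 0.10 2 rises (Ndufb5, Uqcrc1), the pancreatic covariate 1 rise (Uqcrc1) and omission of BD 4 and BD 6 1 fall (Atp5if1). The share of all probe sets that passed moved too. With array weights it was 14.4%, 14.2% and 22.7% in the 3 comparisons, and with quantile normalization 5.99%, 6.86% and 9.22%. At an adjusted p under 0.10 it was 9.07%, 11.1% and 13.5%, and without BD 4 and BD 6 2.56%, 1.33% and 8.34%. A fit of only the groups compared gave 6.34%, 3% and 7.39%, and the RNA quality covariate 6.3%, 3.63% and 3.18%. The pancreatic covariate gave 3.2%, 3.05% and 9.32%, and the replicate block 3.18%, 3.52% and 8.47%.

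Leaving out 1 array at a time gave, for BD minus NBD, 0 to 1 falls (Ndufaf1 without BD_VNS 1 or BD_VNS 2). The share of all probe sets that passed there was 5.15% and 7.72%. For BD_VNS minus BD there were 0 to 1 rises. Without BD 3 the rise was Cox6a1 and not Ndufaf4, and 3.75% of all probe sets passed. For BD_VNS minus NBD there were 0 to 1 rises, Uqcrc1 without BD_VNS 2 (14.3% of all probe sets) and Ndufb5 without NBD 4 (5.17%). There were also 0 to 1 falls, Atp5if1 without BD 4 (9.22%). The median for BD minus NBD was -0.0321, became 0.0279 without BD 4 and BD 6 and 0.0294 with the pancreatic covariate, and was -0.0545 to -0.0039 without 1 array. The median for BD_VNS minus BD was 0.0726, became 0.0133 without BD 4 and BD 6, and was 0.0475 to 0.0931 without 1 array. The causes were not tested. Replicate numbers gave no sign of pairing the arrays (9 same-numbered pairs, correlation of deviations -0.24 to 0.07, and -0.22 to 0.19 for differently numbered pairs). With 3 or 4 arrays a group this check cannot show that the arrays were unpaired. Under the replicate block 0 members passed in any comparison. Of 1880 values of named members under an alternative, where the value first given had not passed, 119 had the other sign, and none of these passed. Many of the 1880 could not change sign, because their setting leaves the change as it was. Such settings were the variance prior, an adjusted p under 0.10 and leaving out low levels. The fit of only the groups compared and leaving out arrays of the group not compared did so too.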
